A study of Mus musculus with 6 samples.

Results

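Transcripts of 8 genes of iron handling and metal binding were followed through 6 single-cell RNA libraries of leukaemic mouse bone marrow: the uptake receptor Tfrc, the transporters Slc11a1 and Slc40a1, the ferritin chains Fth1 and Ftl1, haem oxygenase Hmox1 and the metallothioneins Mt1 and Mt2. The genes were chosen by symbol, and all 8 were found among the 30406 gene identifiers that the 6 count matrices share. Each library came from flushed marrow whose red cells had been lysed, and was made with a droplet kit that tags the 3′ ends of messages. A unique molecular identifier (UMI) marks each captured molecule, and levels are given as UMIs per 1000000 UMIs of the kept cells (CPM). A barcode was kept as a cell if it showed 500 genes or more and if mitochondrial genes gave no more than 10% of its UMIs.

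4 libraries came from leukaemia driven by the fusion MLL-AF9 (MA9), which joins the methyltransferase gene MLL to AF9. In this model Shp-1, the tyrosine phosphatase encoded by Ptpn6, was labelled as floxed (f/f) or deleted (Δ/Δ), and the mice had received PBS or the chemotherapy that the labels spell Arac+Dox. The other 2 libraries came from leukaemia driven by Hoxa9 and Meis1 (HM), titled Shp-1 f/f, after PBS or Arac+Dox. Each of the 6 groups holds 1 library, so differences between groups have no replicate check and no test between groups was made. Values for all libraries are listed in 1 order throughout: MA9 f/f PBS, MA9 Δ/Δ PBS, MA9 f/f Arac+Dox, MA9 Δ/Δ Arac+Dox, HM PBS and HM Arac+Dox. The labels say that the leukaemias were made by transfer of the oncogenes into mouse embryonic stem cells. The driver of the deletion, the deleted exons, the ages of the mice and the number of mice behind each library are not given in the sources used here.

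The kept cells numbered 8614, 9431, 9750, 9446, 2755 and 4676, and held between 15111411 (HM PBS) and 103581646 UMIs (labelled MA9 Δ/Δ Arac+Dox). In the HM PBS library 74.7% of barcodes exceeded the mitochondrial limit, against 1.83% to 8.33% in the other 5, so its values rest on the fewest cells. Ptpn6 itself was measured at 186, 172, 57.7, 43.6, 135 and 113 CPM. The library labelled Δ/Δ PBS was thus close to that labelled f/f PBS, and the library labelled f/f Arac+Dox lay below that labelled Δ/Δ PBS. A 3′ tag outside the deleted exons would not see the deletion, and whether labels were exchanged was not tested, so genotype is given below only as labelled. Both MA9 libraries with Arac+Dox lay below both with PBS. The MA9 libraries shared 21 to 34 cell barcodes in each pairing, the HM libraries shared 37, and MA9 shared 0 with HM.

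Iron enters most cells bound to transferrin, through the receptor Tfrc. It is stored in the ferritin shell built from Fth1, the heavy chain that oxidises iron, and Ftl1, the light chain. It leaves through ferroportin (Slc40a1), the only known iron exporter of mammalian cells. Slc11a1 (NRAMP1) moves divalent metal ions out of the phagosome of macrophages and neutrophils, and Hmox1 opens the haem ring and frees its iron. Marrow macrophages recycle the iron of old red cells through haem breakdown and export, and erythroid precursors take up iron for haemoglobin. Metallothioneins are small cysteine-rich proteins that bind zinc and copper, and their genes respond to metals through the factor Mtf1.

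Iron also acts on these messages after transcription. Iron regulatory proteins bind a hairpin, the iron response element, when iron is scarce. In a 5′ UTR they block translation, and in a 3′ UTR they protect the message from decay. UMI counts report message abundance, so they cannot show the first of these actions. The elements are printed because they divide the 8 genes by the side of the coding sequence on which they sit. The search used the first protein-coding GENCODE vM21 transcript of each gene (GRCm38, sense strand), read 5′ to 3′, for the loop CAGTGN between 5 bases on each side that pair with each other (G-T pairs allowed) and an unpaired C before the stem. Fth1, Ftl1 and Slc40a1 held 1 element each, in the 5′ UTR and in exon 1. Tfrc held 4, all in the 3′ UTR in exon 19, and the other 4 genes held 0. The same letters occurred in a protein-coding transcript of 294 of 21901 protein-coding genes, 1.34%. Capitals mark the loop.

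Fth1, chr19:9982732-9982761, plus strand: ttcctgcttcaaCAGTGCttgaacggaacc
Ftl1, chr7:45459778-45459807, minus strand: gtcttgcttcaaCAGTGTttgaacggaaca
Slc40a1, chr1:45925464-45925493, minus strand: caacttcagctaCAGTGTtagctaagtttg
Tfrc, chr16:32631219-32631248, plus strand: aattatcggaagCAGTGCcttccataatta
Tfrc, chr16:32631598-32631627, plus strand: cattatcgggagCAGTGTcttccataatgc
Tfrc, chr16:32631663-32631692, plus strand: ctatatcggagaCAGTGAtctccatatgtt
Tfrc, chr16:32631710-32631739, plus strand: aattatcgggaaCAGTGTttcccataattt

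The regulatory sequences of the metallothioneins are printed because Mt1 and Mt2 gave the largest ratios among the 8 genes between HM Arac+Dox and HM PBS. The genes lie on chromosome 8 in the same direction, Mt2 at 94172664 to 94173568 and Mt1 at 94179082 to 94180327 (GENCODE vM21, GRCm38), 5513 bases apart. The windows are the 250 bases before each gene's start in RefSeq on GRCm38.p6, and capitals mark the core of the metal response element, searched on both strands as TGCACNC and TGCGCNC. The Mt2 window shows 3 cores and the Mt1 window 1, and a further 1 and 2 lie in the 50 bases after the start.

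Mt2, chr8:94172368-94172617, plus strand: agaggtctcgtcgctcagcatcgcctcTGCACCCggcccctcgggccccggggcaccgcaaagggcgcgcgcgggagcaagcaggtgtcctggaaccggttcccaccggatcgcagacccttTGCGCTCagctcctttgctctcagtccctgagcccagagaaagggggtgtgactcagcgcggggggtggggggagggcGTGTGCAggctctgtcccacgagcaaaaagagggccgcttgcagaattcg
Mt1, chr8:94178839-94179088, plus strand: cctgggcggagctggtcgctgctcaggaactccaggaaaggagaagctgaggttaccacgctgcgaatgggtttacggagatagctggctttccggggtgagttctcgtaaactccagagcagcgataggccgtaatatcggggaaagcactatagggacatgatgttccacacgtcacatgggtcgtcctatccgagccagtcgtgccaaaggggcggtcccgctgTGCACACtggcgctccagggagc

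Counted over the whole window of 300 bases, Mt2 held 4 cores and Mt1 held 3. At least 1 core occurred in 8444 of 32851 RefSeq windows of that length (25.7%), and 3 or more in 647 (1.97%). Both entries for Fth1 and the entries for Ftl1 and Slc11a1 held 0, and those for Tfrc held 2 and 0. A match is a description of letters, not evidence of a bound site.

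To place the 8 genes in the marrow, cells were gated on marker genes that include none of them: granule proteins for immature neutrophils (Camp, Ngp, Ltf and others) and promyelocytes (Mpo, Elane and others), Cxcr2, Retnlg and others for mature neutrophils, Csf1r, Fn1 and others for monocytes, and C1q chains with Cd5l, Vcam1 and others for macrophages. Cells that met the gates of several lineages were 2.65% to 19.2% of kept cells and entered no class. Cells that met no gate were 3.05% to 20.1%. Those that met both neutrophil gates were kept apart from the immature and mature classes. They were 25.2% of cells in HM PBS, 27.5% in HM Arac+Dox and 0.212% to 5.25% in the MA9 libraries. Classes are read at 20 or more cells in a library, and classes of 10 to 19 cells are named as such. Free RNA reaches every droplet, so levels in T cell-gated cells are given where a level is low.

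**Figure D1:**
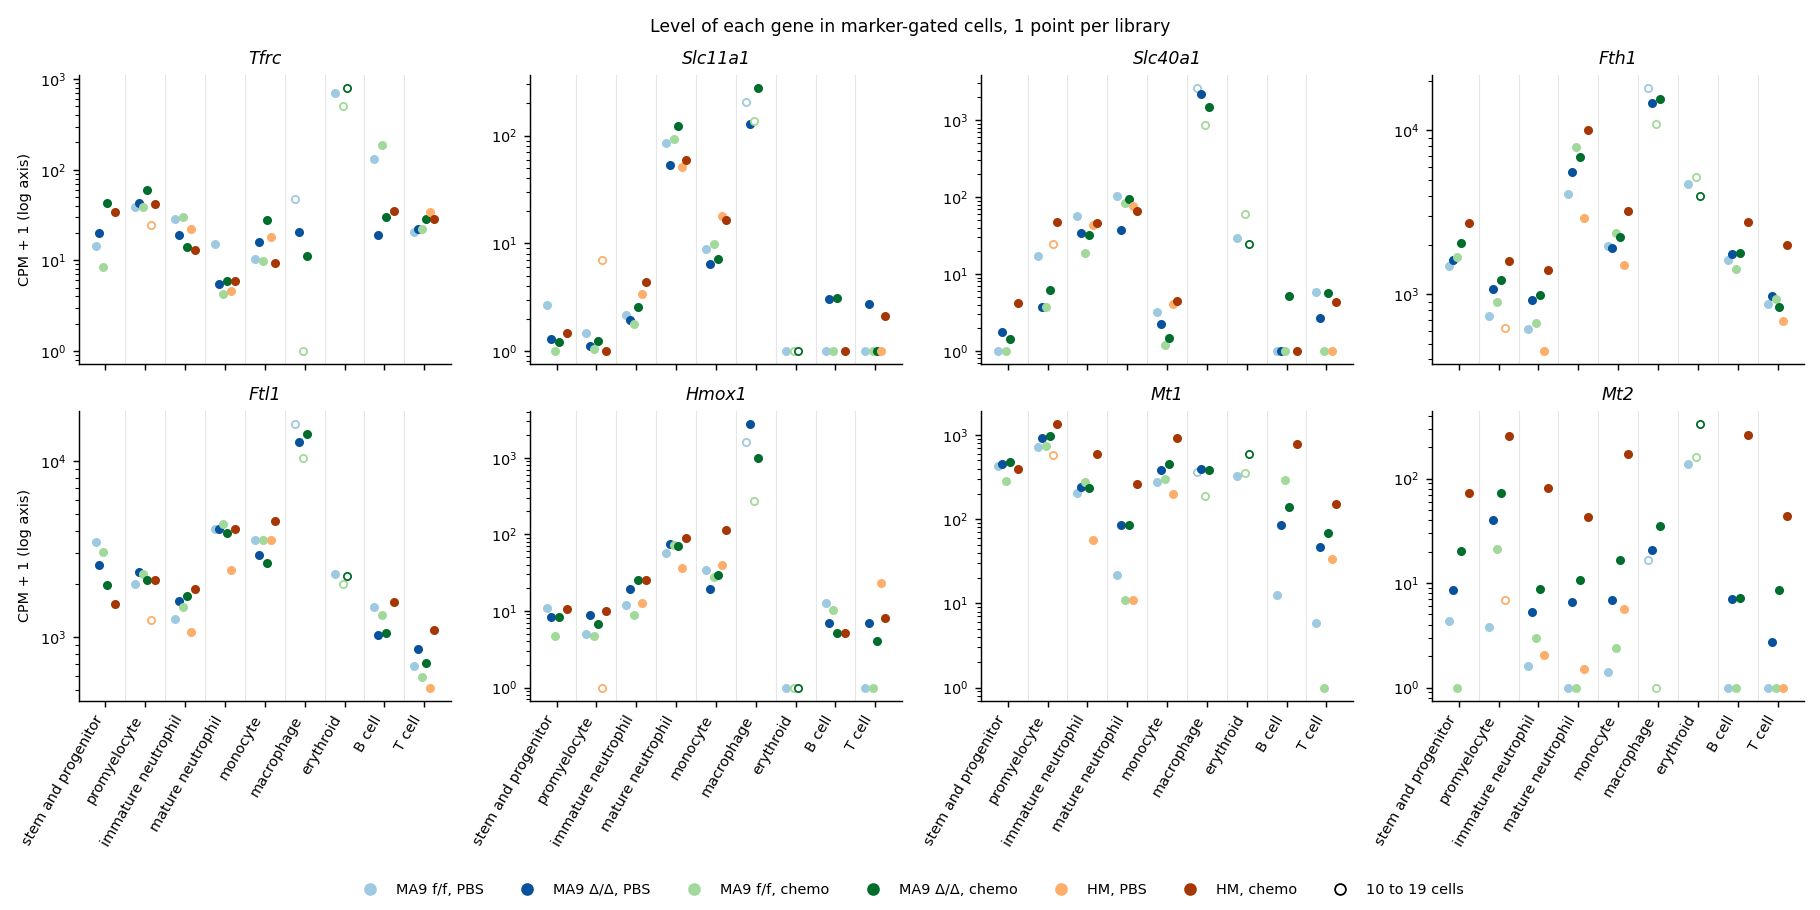
CPM + 1 on a log axis for the 8 genes in 9 marker-gated classes, 1 point per library, with open circles for classes of 10 to 19 cells (chemo stands for Arac+Dox). Tfrc peaks in erythroid cells and Slc40a1, Hmox1 and both ferritin genes in macrophages, while Mt1 and Mt2 differ more between libraries within a class.

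Tfrc was highest in erythroid cells, which held 705 CPM in 22 cells labelled f/f PBS, 509 in 15 cells labelled f/f Arac+Dox and 804 in 13 cells with the Δ/Δ Arac+Dox label. No other class reached these levels in any library. The next highest value was 187 CPM, in 31 B cell-gated cells of the library labelled f/f Arac+Dox, from 20 UMIs. Promyelocytes ranged from 37.7 to 59.2 CPM over 5 libraries with a median of 41.2, and T cells from 19.5 to 32.8 with a median of 24.5. Immature neutrophils (median 19.6), stem and progenitor cells (19.2), monocytes (12.1) and T cells overlapped in their ranges. Mature neutrophils had the lowest median of the myeloid classes (4.67), at 14.3, 4.44, 3.28, 4.90, 3.56 and 4.97 CPM, each under the T cell level of its library. The T cell level of Tfrc is thus not a floor set by free RNA, and overlap with it does not show that a level is background. The erythroid cells held 11.7% of all Tfrc UMIs in the library labelled f/f PBS, though they were 0.255% of its cells.

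Class differences were tested with edgeR's quasi-likelihood test on UMIs summed per class and library, with the library as a block, and Benjamini-Hochberg adjustment over all genes tested. Libraries are the replicates here, each from another group, and a p-value measures only how a class difference spreads across these libraries. Erythroid cells exceeded stem and progenitor cells in Tfrc by a log2 fold change of 4.97 ± 0.32 (SE, 3 libraries, adjusted p = 6.15e-07, higher in 3 of 3). This contrast used classes of 10 or more cells, since 20 or more left 1 library. Over all genes 47.4% passed in that contrast, and 3 of the 5 tested members did: Tfrc, Mt2 and Fth1. Slc40a1, Slc11a1 and Hmox1 had too few UMIs to be tested there. Tfrc fell from immature to mature neutrophils by 1.56 on the log2 scale (SE 0.27, adjusted p = 8.42e-05, lower in 6 of 6 libraries), and 62.7% of all genes passed in that contrast, as did 7 of the 8 members. Between monocytes and immature neutrophils, where 51.9% of all genes and 6 of the 8 members passed, the Tfrc difference was −1.09 ± 0.31 (adjusted p = 0.0147). That call depended on the scaling: with total UMIs in place of TMM factors it was −0.61 with an adjusted p of 0.131.

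Cycling immature neutrophils, which carried transcripts of at least 2 of 6 mitosis genes, were compared with the other immature neutrophils of the same libraries. Cycling cells were deeper in 6 of 6 libraries, with a median of 8537 against 5204 UMIs in the library labelled f/f PBS and 9857 against 4673 in that labelled Δ/Δ PBS. With cells thinned to 1000 UMIs, the calls of Mt1 (0.72), Fth1 (−0.86) and Ftl1 (−0.46) passed, Slc40a1 did not, and the other 4 members have no thinned value. Of all genes 42.6% passed in this contrast, and of the 8 members 7 did. Tfrc was higher in cycling cells by 0.51 ± 0.15 (edgeR adjusted p = 0.00705, higher in 6 of 6 libraries), at 32.7 against 17.3 CPM in the library labelled f/f PBS. The call did not pass under DESeq2 (adjusted p = 0.0567) or without the library labelled MA9 f/f PBS (0.189). Between stem and progenitor cells and immature neutrophils Tfrc differed by −0.16 ± 0.41 (edgeR adjusted p = 0.782, 5 libraries), and the spread between libraries was wider than the difference.

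Slc11a1, the phagosomal metal transporter, followed neutrophil maturation. Mature neutrophils held 84.0, 52.1, 92.0, 122, 50.4 and 58.8 CPM, against 1.16, 0.949, 0.783, 1.55, 2.38 and 3.36 in immature neutrophils. The lowest mature value was above the highest immature one, and T cells ranged from 0 to 1.71 CPM. The log2 fold change was 5.84 ± 0.34 (edgeR adjusted p = 1.77e-10, higher in 6 of 6 libraries). Immature neutrophils overlapped T cells, so the size of this fold is not a measure of an expressed level. Mature neutrophils also carried fewer UMIs per cell (median 2240 against 6832 in the library labelled f/f PBS), and with every cell thinned to 1000 UMIs the difference was 4.67. Cells that met both neutrophil gates lay between them, at 19.8 to 61.0 CPM. In cycling immature neutrophils Slc11a1 was lower by −2.61 ± 0.42 (edgeR adjusted p = 2.19e-05, lower in 6 of 6), from 0 to 11 UMIs a library.

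Monocytes held 5.44 to 17.1 CPM of Slc11a1, 2.24 ± 0.28 log2 units above immature neutrophils (edgeR adjusted p = 1.05e-04, higher in 6 of 6). Macrophages held 203 CPM (17 cells, 13 UMIs), 126 (91 cells), 136 (13 cells, 5 UMIs) and 278 (68 cells) in the MA9 libraries, and both larger samples exceeded the mature neutrophils of their library. No HM library held 10 macrophages. In the contrast of macrophages with monocytes (4 libraries, 10 or more cells; at 20 or more, 2 libraries were left) 23.5% of all genes passed and 6 of the 8 members did. Slc11a1 was higher by 4.68 ± 0.34 (edgeR adjusted p = 1.87e-41, higher in 4 of 4). Such small p-values rest on a spread estimated across all genes, and the libraries labelled f/f gave 17 and 13 macrophages.

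Slc40a1, the iron exporter, was highest in macrophages. In the order of the MA9 libraries they held 2641, 2167, 869 and 1461 CPM. In no other class of any library did it exceed 103 CPM. Mature neutrophils held 103, 36.6, 82.1, 93.1, 75.6 and 65.2 CPM, and immature neutrophils 56.1, 33.2, 17.9, 31.0, 42.6 and 45.4. The neutrophil ranges overlapped across libraries, but within each library the mature cells were higher (log2 fold change 1.19 ± 0.23, edgeR adjusted p = 2.51e-04, 6 of 6). Erythroid cells held 28.3, 59.7 and 23.5 CPM from 9, 19 and 6 UMIs.

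Monocytes (0.186 to 3.50 CPM) and stem and progenitor cells (0 to 3.25) did not lie above T cells (0 to 4.86) in Slc40a1. Their log2 fold changes against immature neutrophils were −5.22 ± 0.29 and −5.87 ± 0.40 (edgeR, lower in 6 of 6 and 5 of 5 libraries). The adjusted p-values were 6.37e-07 and 8.77e-06, and 42.7% of all genes passed in the contrast with stem and progenitor cells, as did 3 of the 7 members tested. Since the lower class was at the T cell level, these folds are not measures of an expressed level. Cycling and other immature neutrophils differed in Slc40a1 by −0.03 ± 0.13 (edgeR adjusted p = 0.894). It was the member of the cycling contrast that did not pass.

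**Figure D2:**
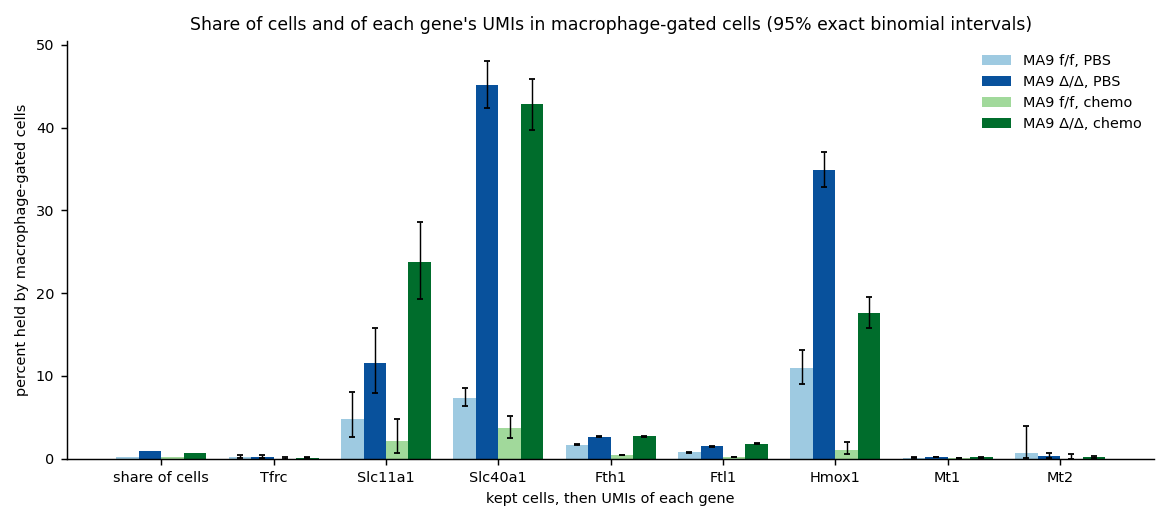
Percent of kept cells, and of the UMIs of each gene, held by macrophage-gated cells in the 4 MA9 libraries, with exact binomial 95% intervals for counting error. In the library labelled Δ/Δ PBS the macrophages were 0.965% of cells and held 45.2% of Slc40a1 and 34.9% of Hmox1 UMIs.

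Few macrophages held a large share of the export message. In the libraries labelled Δ/Δ, 91 and 68 macrophages (0.965% and 0.720% of cells) held 45.2% (42.4 to 48.1, exact binomial 95% interval) and 42.8% (39.7 to 45.9) of all Slc40a1 UMIs. In those labelled f/f, 17 and 13 macrophages held 7.34% and 3.67%. There the immature neutrophils were the main source, with 54.5% and 52.3%. Intervals here and below cover counting error only.

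Fth1 and Ftl1, the ferritin chains, had their highest level in the same cells. Macrophages held 18223, 14653, 10921 and 15510 CPM of Fth1 and 16192, 12924, 10404 and 14251 CPM of Ftl1 in the MA9 libraries. Of the classes named here, mature neutrophils came next in Fth1 (median 6237), then erythroid cells (4740 in 22 cells) and monocytes (2109). Stem and progenitor cells (1698), promyelocytes (1079), T cells (905) and immature neutrophils (794) followed. Macrophages lay above the range of mature neutrophils, and the erythroid values (3953 to 5205, 13 to 22 cells) lay above that of monocytes (highest 3234). The ranges of the other neighbours in this order overlapped. Outside that order, dendritic cells (2707), basophil and mast cells (2017), stroma (1894) and B cells (1762) lay between erythroid and stem and progenitor cells. Plasma cells were lowest, at 308 and 369 CPM in the libraries labelled Δ/Δ. Of the classes first named, the Ftl1 order was mature neutrophils (4088), monocytes (3560), stem and progenitor cells (2565), promyelocytes (2107), immature neutrophils (1537) and T cells (693). Erythroid cells stood at 2293. Neighbours in that order overlapped, except promyelocytes (lowest 1995) and immature neutrophils (highest 1860).

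Taken as shares of UMIs (CPM), both chains were higher in mature than in immature neutrophils. Mature cells carried fewer UMIs each in every library, with medians of 4220 against 15852 for HM Arac+Dox and 3332 against 4752 for HM PBS. A higher CPM thus does not show more message per cell, for these or the other genes of this contrast. Message per cell was not compared. In mature neutrophils Fth1 was at 4088, 5612, 7899, 6861, 2925 and 10069 CPM against 609, 918, 670, 991, 450 and 1403 in immature neutrophils. The lowest mature value was above the highest immature one. The log2 fold change was 3.11 ± 0.17 for Fth1 (8.63-fold, edgeR adjusted p = 1.13e-10) and 1.59 ± 0.15 for Ftl1 (3.02-fold, adjusted p = 5.54e-08), each higher in 6 of 6 libraries; the difference between the genes was not tested. Monocytes were above immature neutrophils in Fth1 by 0.97 ± 0.16 (edgeR adjusted p = 6.95e-04) and in Ftl1 by 0.73 ± 0.15 (0.00276), both in 6 of 6. Without the library as a block the Fth1 call did not pass (0.0685).

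Macrophages exceeded monocytes in Fth1 by 2.60 ± 0.36 (edgeR adjusted p = 1.50e-11) and in Ftl1 by 1.89 ± 0.35 (1.35e-06), in 4 of 4 libraries. Erythroid cells exceeded stem and progenitor cells in Fth1 by 1.43 ± 0.16 (edgeR adjusted p = 2.81e-05, 3 of 3), while Ftl1 differed by −0.33 ± 0.16 (0.111). The last value passed at −0.60 (0.0251) when the Arac+Dox library labelled Δ/Δ was left out, and at −0.63 (0.00848) after thinning. Stem and progenitor cells were above immature neutrophils in Fth1 by 0.59 ± 0.15 (edgeR adjusted p = 0.0128, 5 of 5). That call did not pass without the library labelled f/f PBS (0.0589) or f/f Arac+Dox (0.0526). Both chains were lower in cycling immature neutrophils, Fth1 by −0.79 ± 0.13 (edgeR adjusted p = 1.71e-05) and Ftl1 by −0.49 ± 0.09 (1.36e-04), in 6 of 6 libraries. Without the library as a block the cycling calls of Fth1 (0.336), Ftl1 (0.334), Hmox1 (0.628), Mt1 (0.776) and Tfrc (0.313) did not pass.

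Ftl1 has a near-identical copy, Ftl1-ps1: 83.7% of the 30-base windows of its transcript Ftl1-ps1-202 also occur in Ftl1-201. The matrices counted the copy apart, at 86.6, 75.9, 144, 26.3, 33.7 and 12.0 CPM. In turn, 81.0% of the windows of Ftl1-201 occur in that copy. How reads that match both were counted was not tested. The level of Ftl1 is therefore uncertain, and the CPM of the copy does not bound by how much. Adding the copy covers only UMIs that were counted for either gene. With the UMIs of the copy added, the log2 ratio of Ftl1 between the libraries labelled Δ/Δ and f/f after Arac+Dox moved from −0.01 to −0.09, and the other ratios moved less.

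Hmox1 was highest in macrophages, at 1625 CPM (17 cells), 2744 (91), 272 (13) and 991 (68). The lowest of these was still above every other class of every library, the highest being 112 CPM in HM Arac+Dox monocytes. The difference from monocytes was 5.28 ± 0.37 on the log2 scale (edgeR adjusted p = 9.36e-44, higher in 4 of 4). Mature neutrophils held 55.5, 74.3, 72.3, 68.6, 35.4 and 88.6 CPM against 11.0, 18.5, 7.75, 24.4, 11.6 and 24.4 in immature neutrophils. The mature cells were higher in 6 of 6 libraries, by 2.29 ± 0.22 (4.9-fold, edgeR adjusted p = 7.29e-08). Erythroid cells held 0 Hmox1 UMIs in each of the 3 libraries with 10 or more of them, which allows up to 11.8 CPM in the shallowest (3 UMIs).

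Hmox1 was lower in stem and progenitor cells than in immature neutrophils by −1.68 ± 0.29 (edgeR adjusted p = 0.0016, lower in 5 of 5 libraries) and lower in cycling immature neutrophils by −1.05 ± 0.20 (1.41e-04, lower in 5 of 6). The exception was the Δ/Δ-labelled Arac+Dox library, at 26.8 CPM in cycling cells against 10.6, the latter from 4 UMIs. T cells held 0, 5.98, 0, 3.06, 21.9 and 7.08 CPM of Hmox1 (median 4.52), the 21.9 from 2 UMIs in 31 cells. Immature neutrophils (7.75 to 24.4) lay above the T cells of their library except in HM PBS. The range of stem and progenitor cells (3.77 to 10.1) overlapped that of T cells, so the first fold is not a measure of an expressed level. T cell UMIs were few, so the size of the second is uncertain. Monocytes were above immature neutrophils by 0.84 ± 0.27 (edgeR adjusted p = 0.0266, 6 of 6). Leaving out HM PBS, HM Arac+Dox or the library labelled f/f PBS or f/f Arac+Dox ended that call, with adjusted p-values of 0.0546, 0.0818, 0.074 and 0.0761.

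**Figure D3:**
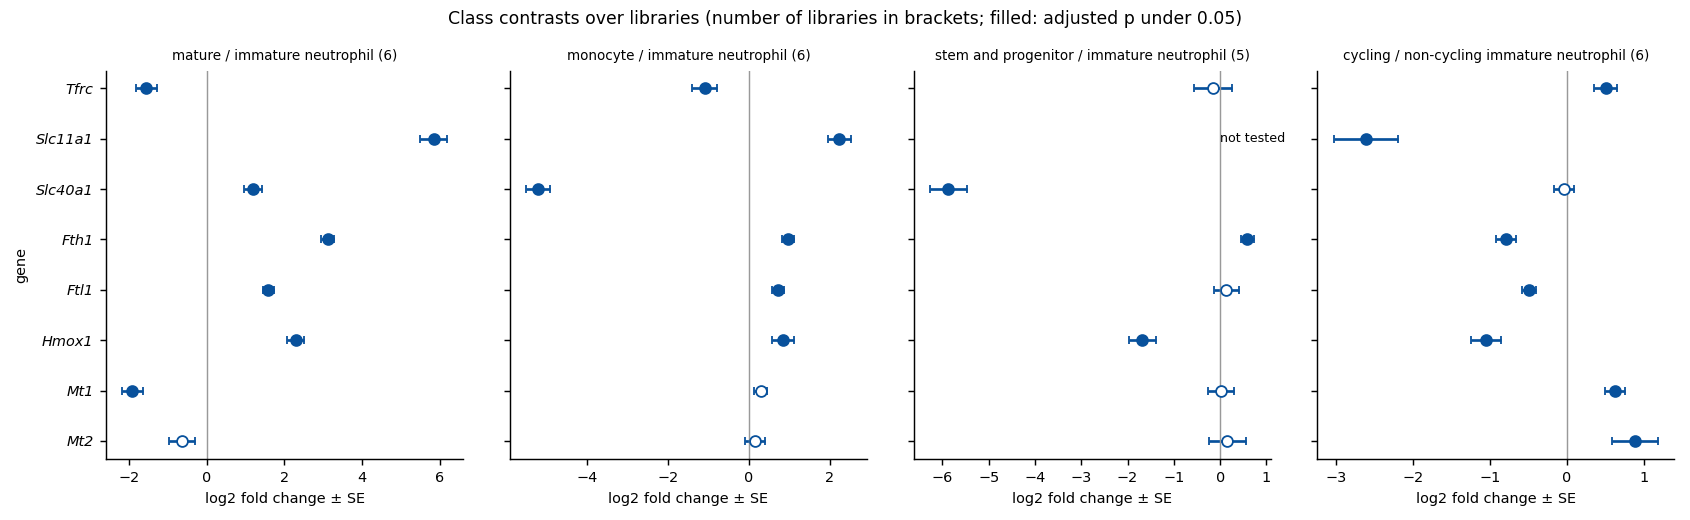
Log2 fold change ± SE of each gene in the 4 class contrasts with 5 or 6 libraries, filled where the edgeR adjusted p was under 0.05. Fth1, Ftl1, Slc40a1, Slc11a1 and Hmox1 were higher in mature than in immature neutrophils, and Tfrc and Mt1 lower.

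Mt1 and Mt2, the metallothioneins, had another distribution. Mt1 was highest among classes of several libraries in promyelocytes, at 728, 924, 745, 976 and 1342 CPM in the 4 MA9 libraries and HM Arac+Dox, with 572 in the 12 promyelocytes of HM PBS. Stem and progenitor cells followed with 427, 450, 287, 481 and 395 CPM in the same 5 libraries, and their range did not reach that of the promyelocytes. Monocytes ranged from 200 to 928 CPM and immature neutrophils from 55.3 to 595, which overlap. Mature neutrophils held 20.6, 85.4, 9.85, 83.3, 9.92 and 262 CPM. T cells held 4.86, 45.3, 0, 67.4, 32.8 and 150 CPM, so the mature neutrophils of HM PBS lay under the T cells of their library.

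Mt1 fell from immature to mature neutrophils by 1.91 on the log2 scale (SE 0.26, edgeR adjusted p = 5.20e-06, lower in 6 of 6 libraries). Without the library as a block the adjusted p was 0.0988. Mt2 differed by −0.63 ± 0.34 (edgeR adjusted p = 0.119), and by 0.01 without HM Arac+Dox. In cycling immature neutrophils Mt1 was higher by 0.63 ± 0.13 (edgeR adjusted p = 2.99e-04, 6 of 6). Mt2 was higher there by 0.89 ± 0.30 (0.0201, 4 of 6), a call that did not pass under DESeq2 (0.299) or without HM Arac+Dox (0.294) or the library labelled f/f Arac+Dox (0.0569). Monocytes and immature neutrophils differed by 0.29 ± 0.17 in Mt1 (edgeR adjusted p = 0.193) and 0.15 ± 0.24 in Mt2 (0.639). With total UMIs in place of TMM the first passed, at 0.77 (0.00778).

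The class with the highest Mt2 differed between libraries. Erythroid cells held 138, 160 and 329 CPM in the same 3 libraries as for Tfrc, and their stem and progenitor cells 3.38, 0 and 19.3. The log2 fold change was 4.59 ± 0.38 (edgeR adjusted p = 2.70e-06, higher in 3 of 3), while Mt1 differed by 0.09 ± 0.20 (0.749) in the same contrast. Promyelocytes held 2.80, 39.1, 20.3, 72.3 and 254 CPM of Mt2, a spread far wider than that of Mt1 in the same cells. In HM Arac+Dox every class read had Mt2: the 18 plasma cells held 514 CPM, B cells 258, monocytes 172, dendritic cells 152, basophil and mast cells 114, immature neutrophils 79.9 and stem and progenitor cells 71.9, with T cells at 42.9. Macrophages exceeded monocytes in Mt2 by 1.56 ± 0.62 (edgeR adjusted p = 0.0494), from 1, 5, 0 and 10 UMIs. That call did not pass under DESeq2 (0.0506), thinning (0.0583), total-UMI scaling (0.0554) or the absence of the library labelled Δ/Δ PBS (0.276), Δ/Δ Arac+Dox (0.185) or f/f PBS (0.103).

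Other genes of iron and haem metabolism, 61 in 10 lists, were counted in the same fits. From immature to mature neutrophils 14 of 41 tested were higher and 15 lower (median −0.25), against 27.2% higher and 35.6% lower of all genes (median −0.21). Steap4, a ferrireductase, was higher by 6.46 ± 0.44 and Fbxl5, the iron-sensing subunit that marks Ireb2 for degradation, by 2.90 ± 0.21. The haem synthesis enzyme Alad was lower, by −3.30 ± 0.57, and 0 of 8 haem synthesis genes were higher and 4 lower. Each of these named genes passed edgeR's test. Of the 5 tested regulators of Hmox1 and ferritin 4 were higher and 0 lower.

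In monocytes against immature neutrophils 17 of 47 list genes were higher and 11 lower (median 0.20), beside 26.5% and 25.5% of all genes (median 0.03). With total UMIs in place of TMM the calls over all genes went from 2952 higher and 2840 lower to 5552 and 1422, and the median to 0.50. Lcn2, which binds the siderophores of bacteria, was lower by −6.71 ± 0.43, and Cd163, the receptor for haemoglobin bound to haptoglobin, was higher by 5.54 ± 0.45. The transporter Slc39a14 (2.78 ± 0.40) and the endosomal reductase Steap3 (2.72 ± 0.46) were higher, as were 5 of 6 genes of the transferrin uptake list. In stem and progenitor cells 11 of 48 were higher and 9 lower (median 0.07), beside 20.7% and 22% of all genes (median 0.02, and 0.51 with total UMIs, with 4583 higher and 1211 lower). Tfr2, the second transferrin receptor, was higher by 6.65 ± 0.75, Cd163 by 3.04 ± 0.82 and Abcg2, a porphyrin exporter, by 2.97 ± 0.68, and Lcn2 was lower by −6.65 ± 0.35.

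Erythroid cells showed the most list genes above stem and progenitor cells, 20 of 37, with 7 lower (median 1.22), beside 21.3% and 26.1% of all genes (median 0.00). Haem synthesis genes were higher in 7 of 8, among them Cpox (5.08 ± 0.28). Blvrb, a biliverdin reductase, was higher by 5.61 ± 0.21 and Abcg2 by 5.54 ± 0.42. All 4 of the tested transferrin uptake genes and 6 of 7 of mitochondrial iron were higher. List genes that served as gate markers (Alas2, Spic and Ltf) were left out of these counts.

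Macrophages had 15 of 47 list genes above monocytes and 3 below (median 0.36), beside 11.4% and 12.1% of all genes (median −0.22). The highest were Trf, the gene of transferrin (4.87 ± 0.33), and Cp, a copper ferroxidase that works with ferroportin (4.17 ± 0.96). Blvrb (3.25 ± 0.30) and Hfe (3.04 ± 0.40), a partner of the transferrin receptor, followed. In cycling against other immature neutrophils 11 of 41 were higher and 10 lower (median 0.02), beside 23.8% and 18.8% of all genes (median 0.03, and 0.17 with total UMIs, with 3039 higher and 1229 lower). Alad (1.20 ± 0.21) was higher, and the small Maf factor Mafk (−0.99 ± 0.19) and Lcn2 (−0.94 ± 0.14) lower.

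**Figure D4:**
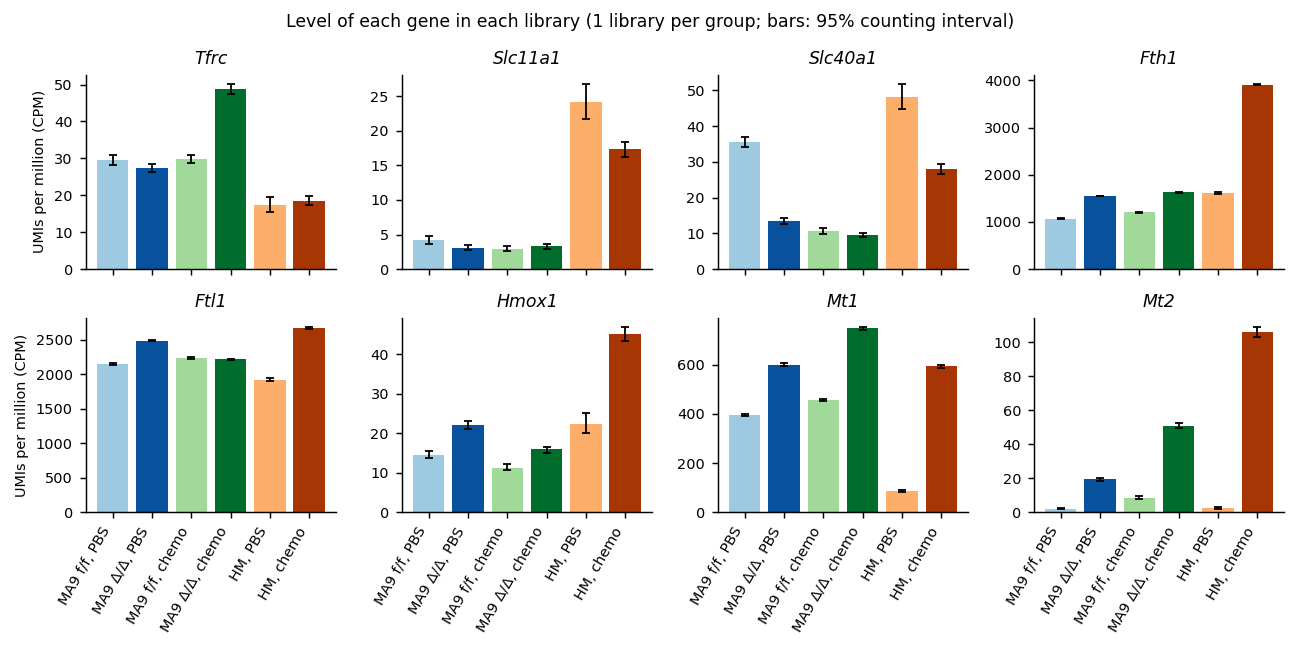
Level of each gene in each library (CPM of all kept cells, linear axes from 0, 1 library per group) with 95% counting intervals. Mt1, Mt2 and Fth1 are several-fold higher in HM Arac+Dox than in HM PBS, and Slc40a1 is highest in the libraries labelled MA9 f/f PBS and HM PBS.

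Between libraries, levels over all kept cells mix the level within a class with the share of each class, and fewer cells of a type cannot be told apart from less message per cell without the gates. Each pair below is described by its log2 ratio with an exact conditional 95% interval, and by how many genes differ at least 2-fold among those that reach 20 CPM on one side of the pair. Pairs that share a library are not independent of each other.

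Mt2 was measured at 2.14, 19.3, 8.62, 50.8, 2.45 and 106 CPM, and Mt1 at 395, 600, 455, 747, 85.0 and 593. In each leukaemia model the Arac+Dox library was above the PBS library with the same label, for both genes. The library pairs labelled Δ/Δ and f/f also shared a direction, with more of both genes under Δ/Δ. Within MA9 classes, Mt1 with Arac+Dox against PBS stood at 745 against 728 CPM in promyelocytes under f/f, and 976 against 924 under Δ/Δ. Monocytes stood at 303 against 278 and 448 against 383. Immature neutrophils stood at 274 against 205 and 232 against 242, and mature neutrophils at 9.85 (3 UMIs) against 20.6 and 83.3 against 85.4. Promyelocytes were 20.8% against 15.5% of cells under f/f and 31.8% against 16.0% under Δ/Δ. The part of these shares in the ratios was not tested.

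The widest differences were in the HM model. HM Arac+Dox exceeded HM PBS 43.4-fold in Mt2 (log2 ratio 5.44, 4.97 to 5.95) and 6.98-fold in Mt1 (2.80, 2.72 to 2.89). Fth1 stood at 3913 against 1606 CPM (2.44-fold) and Hmox1 at 45.1 against 22.4 (2.01-fold). These 4 of the 7 members at 20 CPM were past 2-fold, against 23.4% of all genes, of which 655 were higher and 536 lower (516 and 636 with median-of-ratios scaling). Hmox1 lay at the limit, and its log2 ratio was 0.92 with that scaling and 0.98 with doublets removed, which leaves 3 of the 7. Ftl1 was 0.48 higher, Tfrc differed by 0.08 (−0.11 to 0.29), and Slc40a1 and Slc11a1 were lower by −0.79 and −0.48.

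The HM difference in Mt1, Mt2, Fth1 and Hmox1 was present in each of the 3 classes compared. With Arac+Dox, Mt1 stood at 595 against 55.3 CPM in immature neutrophils, 262 against 9.92 in mature neutrophils and 928 against 200 in monocytes (log2 ratios 3.43, 4.72 and 2.21). Mt2 ratios in these classes were 6.24 (4.87 to 8.12), 6.37 (4.50 to 9.42) and 5.20 (4.27 to 6.33), from 4, 2 and 9 UMIs in HM PBS. T cells held 42.9 against 0 CPM of Mt2 and 150 against 32.8 of Mt1, with 31 T cells in HM PBS, and mature neutrophils stood at 42.0 CPM of Mt2, no higher than those T cells. The same T cells held 1992 against 689 CPM of Fth1, and 7.08 against 21.9 of Hmox1, the last from 2 UMIs. In the 3 classes Fth1 ratios were 1.64, 1.78 and 1.11, and Hmox1 ratios 1.07, 1.32 and 1.52. In Slc40a1 and Slc11a1 the intervals within these classes included 0.

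The HM PBS library is the one in which most barcodes failed the mitochondrial limit. With every deposited barcode counted, its Mt2 level was 10.7 instead of 2.45 CPM, and the HM ratio of Mt2 was 3.30 in place of 5.44. The ratios of Mt1, Fth1 and Hmox1 became 2.32, 1.61 and 1.40, and that of Slc11a1 changed sign to 0.06. T cells were 15.2% of cells in HM Arac+Dox and 1.13% in HM PBS, and the part of this and of the barcode loss in the library ratios was not tested.

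**Figure D5:**
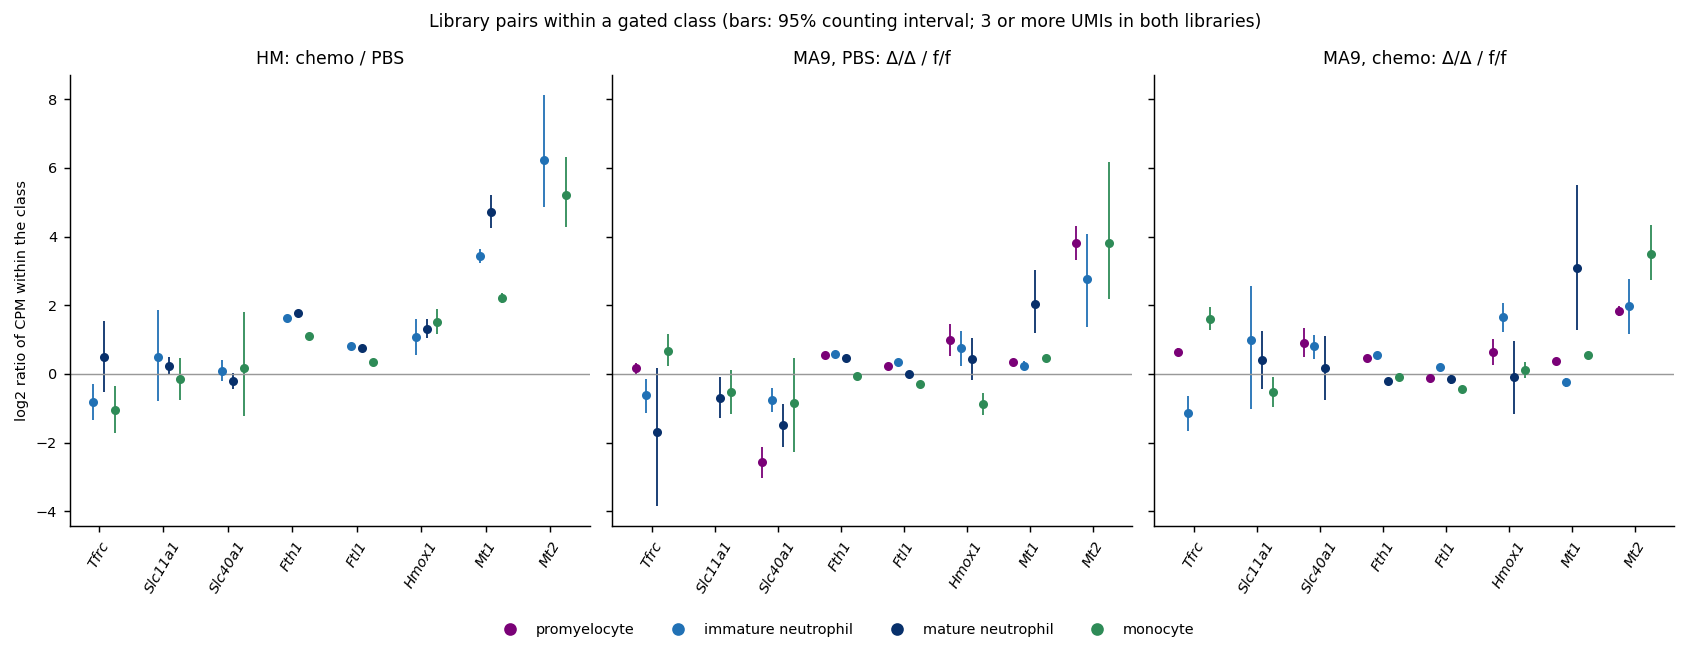
Log2 ratio of CPM within a gated class for 3 library pairs, with 95% counting intervals, for genes with 3 or more UMIs in both libraries. The Mt1 and Mt2 ratios plotted for HM lie between 2.21 and 6.24, and the Slc40a1 points lie below 0 in the PBS pair of MA9 (chemo stands for Arac+Dox).

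In the MA9 PBS pair, the library labelled Δ/Δ held 9.04-fold more Mt2 (log2 ratio 3.18, 2.93 to 3.44), at under 20 CPM in both. Mt1 was 0.60 higher, Hmox1 0.60, Fth1 0.53 and Ftl1 0.21, while Tfrc was −0.12 and Slc11a1 −0.44. Slc40a1 stood at 13.5 against 35.4 CPM, a ratio of −1.40 (−1.50 to −1.30). It was the 1 member of 6 at 20 CPM past 2-fold, against 7.63% of all genes (231 higher and 238 lower, or 156 and 315 with median-of-ratios scaling).

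The Slc40a1 difference in that pair differed by class. The ratio was −2.56 (−3.02 to −2.12) in promyelocytes (2.71 against 16.0 CPM, the lower within the T cell range), −1.49 (−2.14 to −0.87) in mature and −0.76 (−1.12 to −0.41) in immature neutrophils. Immature neutrophils were 35.8% of cells in the library labelled f/f and 2.62% in that labelled Δ/Δ, which held more macrophages. With macrophages left out of both libraries the ratio of Slc40a1 was −2.15 and that of Hmox1 was 0.15 instead of 0.60. Mt2 was higher under the Δ/Δ label in promyelocytes (3.80, 3.33 to 4.32), monocytes (3.82, 2.17 to 6.16) and immature neutrophils (2.77, 1.38 to 4.08). Mt1 ratios there were 0.34, 0.47 and 0.24. The Mt2 ratio in monocytes rested on 38 against 3 UMIs, and that in immature neutrophils on 9 against 14. Under Δ/Δ, Mt2 stood at 5.91 CPM in monocytes and 4.27 in immature neutrophils, beside 1.71 in T cells (2 UMIs).

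In the Arac+Dox pair of MA9, Mt2 was 50.8 CPM under the Δ/Δ label and 8.62 under f/f, a ratio of 2.56 (2.44 to 2.67; 5.89-fold). It was the 1 member of 5 at 20 CPM past 2-fold, against 10.2% of all genes. Mt1 was 0.72 higher, Tfrc 0.71, Hmox1 0.49 and Fth1 0.44, and Ftl1 was at −0.01, Slc40a1 at −0.15 and Slc11a1 at 0.17. The Tfrc difference had opposite signs in 2 classes: 1.61 (1.28 to 1.95) in monocytes and −1.13 (−1.67 to −0.64) in immature neutrophils, with 0.64 (0.53 to 0.76) in promyelocytes. Mt2 ratios were 3.48 in monocytes, 1.99 in immature neutrophils and 1.83 in promyelocytes. Under the Δ/Δ label the immature neutrophils held 7.76 CPM of Mt2 (20 UMIs), beside 7.66 in T cells (5 UMIs). The immature neutrophil ratio of Mt2 is thus not a measure of an expressed level. Mt1 was at −0.24 in immature neutrophils, against its direction over all cells. Slc40a1, near 0 over all cells, was at 0.80 (0.44 to 1.14) in immature neutrophils, and −0.89 over all cells without macrophages. In promyelocytes it stood at 5.19 against 2.77 CPM, near the T cell range of 0 to 4.86.

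Chemotherapy against PBS gave fewer differences within MA9. Under the f/f label Slc40a1 was 10.6 against 35.4 CPM, a ratio of −1.74 (−1.85 to −1.62; 3.33-fold), the 1 member of 5 past 2-fold against 1.30% of all genes. The ratio was −1.65 (−1.81 to −1.50) in immature neutrophils, −2.53 (−2.98 to −2.10) in promyelocytes (2.77 against 16.0 CPM, the lower within the T cell range) and −0.33 (−1.05 to 0.36) in mature neutrophils. Immature neutrophils were 35.8% and 32.5% of these cells, so their share differed little. Mt2 was 2.01 higher at under 20 CPM, Mt1 0.20, Fth1 0.17 and Ftl1 0.06, Tfrc was at 0.01, and Hmox1 and Slc11a1 at −0.37 and −0.52.

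Under the Δ/Δ label Mt2 was 2.63-fold higher with Arac+Dox (log2 ratio 1.39), the 1 member of 6 past 2-fold against 2.29% of all genes. Tfrc was 48.8 against 27.3 CPM (0.84), with 1.14 (0.89 to 1.39) in stem and progenitor cells, 0.85 (0.52 to 1.19) in monocytes and 0.48 (0.37 to 0.59) in promyelocytes. Immature neutrophils went the other way, at 13.2 against 18.0 CPM of Tfrc, from 34 and 38 UMIs. Over all cells Mt1 was at 0.32, Fth1 at 0.07, Slc11a1 at 0.09, Ftl1 at −0.17, Slc40a1 at −0.48 and Hmox1 at −0.48. In macrophages Hmox1 differed by −1.47 (−1.67 to −1.27) and Slc40a1 by −0.57 (−0.75 to −0.38). Without macrophages the Hmox1 ratio of the library was −0.14.

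The HM PBS and MA9 f/f PBS libraries also differ in the feature list used for counting, and they share 0 cell barcodes. A difference in how the libraries were made cannot be told apart from the leukaemia model. Of all genes 39.7% were past 2-fold, 534 higher and 1840 lower in HM (994 and 571 with median-of-ratios scaling). The median of all genes over all cells was −0.619, and values over all cells are read against it. Of the 7 members at 20 CPM, Mt1 (−2.22, 4.65-fold lower) and Slc11a1 (2.53, 5.77-fold higher) were past 2-fold. Slc11a1 stood at 24.2 against 4.19 CPM over all cells, yet at 50.4 against 84.0 in mature neutrophils, which were 40.6% of HM and 3.08% of MA9 cells. Cells that met both neutrophil gates were a further 25.2% and 5.25%. Mt1 was −1.89 (−2.09 to −1.69) in immature neutrophils and −0.47 in monocytes. Fth1 was at 0.58 over all cells, and at −0.44 in immature neutrophils, −0.48 in mature neutrophils and −0.40 in monocytes. No median of all genes was made within a class, so the values within classes have no such reference. With median-of-ratios scaling Fth1 (1.20), Hmox1 (1.24) and Slc40a1 (1.06) were also past 2-fold. Tfrc was at −0.76, Hmox1 at 0.62, Slc40a1 at 0.44, Mt2 at 0.19 and Ftl1 at −0.16.

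Other iron genes of the lists were counted by the same rule. Of 29, 29, 27, 30, 23 and 26 list genes at 20 CPM in the pairs (Δ/Δ against f/f with PBS and with Arac+Dox, Arac+Dox against PBS under f/f, Δ/Δ and in HM, and HM against MA9), 0, 1, 0, 0, 4 and 3 were at least 2-fold higher, and 1, 1, 0, 0, 2 and 9 lower. Over all genes, the share past 2-fold in either direction in these pairs was 7.63%, 10.2%, 1.30%, 2.29%, 23.4% and 39.7%. Lcn2 was lower under the Δ/Δ label, at 487 against 2810 CPM with PBS (−2.53) and 602 against 2048 with Arac+Dox (−1.77). The zinc transporter gene Slc39a6 was higher there, by 0.93 and 1.33. In HM the iron chaperone gene Pcbp1 was at 228 against 89.0 CPM with Arac+Dox (1.36). The mitochondrial iron importer gene Slc25a37 (−1.31) and Fbxl5 (−1.24) were lower. Between HM PBS and MA9 f/f PBS the haem transporter gene Slc48a1 (−2.61), the ferritinophagy receptor gene Ncoa4 (−1.98) and Cpox (−1.86) were lower and Fbxl5 (2.23) higher.

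Over 49 class and library sums from 13 classes, the genes whose log2(CPM + 1) was most like each member were listed as a description, since sums of 1 library share its depth and free RNA. Slc11a1 was most like Pla2g7 (Pearson r = 0.892), Ftl1 like Creg1 (0.878) and Sirpa (0.835), and Slc40a1 and Hmox1 both like the Fc receptor gene Fcgr4 (0.833 and 0.771). Fth1 was most like the proton pump subunit gene Atp6v1g1 (0.788), Tfrc like Zc3h13 (0.783) and the DNA polymerase subunit gene Pold1 (0.781), and Mt1 like Vkorc1 (0.780). Mt2 was most like Mt1 (0.647) and then Ddit3, a stress-response factor gene (0.644). Among the members, Slc11a1 and Hmox1 (0.77) and Fth1 and Ftl1 (0.75) were most alike, and Tfrc was not above 0.16 with any other member.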

How the data were processed

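Per the submitters' processing notes, reads were aligned to mm10 and counted with Cell Ranger 3.0.2; the deposited matrices hold UMI counts per gene and barcode, and per the file headers the MA9 matrices name that version while the HM matrices name no software. Other steps before deposit are not given in the sources used here. Barcodes with fewer than 500 genes or over 10% mitochondrial UMIs were dropped, and CPM was computed per library and per gated class. Cells were gated on fixed markers, at 1% of UMIs for immature neutrophils and promyelocytes, 0.5% for mature neutrophils, 0.2% for monocytes (with 3 or more markers) and 3 detected markers for other classes, with 2 C1q chains for macrophages; these thresholds were settled on the files. The members and gene lists were chosen with earlier results of these data known.

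Library pairs were compared as log2 CPM ratios with exact conditional 95% intervals, which cover counting error only, since 1 library per group allows no test. Class contrasts used edgeR 4.0.16 (R 4.3.3; quasi-likelihood test, TMM factors, library as block) on UMIs summed per class and library, with Benjamini-Hochberg adjustment and 0.05 as the threshold. Both classes of a contrast come from the same library, which is the source of the pairing. Each library is another group, so p-values measure only how a class difference spreads across groups, with no replicate of any group. The labels do not say whether libraries came from separate animals, so part of that spread may be technical. The erythroid and macrophage contrasts, at 10 or more cells, were chosen after seeing the data. The model was tested on simulated data. Alternatives were DESeq2 1.42.0, other scalings, filters, gates, cells thinned to 1000 UMIs, removal of the top 5% of doublet scores (scrublet in scanpy 1.11.5; doublets were kept otherwise), and leaving out each library. From the lists, up to 4 genes per comparison with the largest log2 difference were named, some of which are not reported here, and for each member up to 3 genes most like it. Iron response elements and promoters came from GENCODE vM21 and RefSeq; 6 of the 8 genes had a promoter entry.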

Additional observations from a re-analysis of the deposited data

Results flagged for a closer look

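Hmox1, haem oxygenase, was lower in the Arac+Dox than in the PBS library in MA9 under the f/f label (log2 ratio −0.37) and under the Δ/Δ label (−0.48), and higher in HM (1.01). It is given here because the leukaemia models differ in direction. With 1 library per group the difference between models was not tested. With macrophage-gated cells left out the ratios were −0.21, −0.14 and 1.01. Within classes the direction in MA9 was mixed: in monocytes the ratios were −0.35, 0.64 and 1.52, in immature neutrophils −0.50, 0.40 (−0.20 to 1.02) and 1.07, and in mature neutrophils 0.38 (−0.46 to 1.19), −0.12 (−1.06 to 0.73) and 1.32.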

How the results depend on the processing

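Of the log2 ratios of the members between libraries, 162 of 246 under the alternatives stayed within their counting interval, 79 moved beyond it with the same sign and 5 beyond it with the other sign; Mt2, Slc11a1 and Tfrc ratios near 0 also crossed 0 within that interval. Of those within classes, 191 of 266 stayed within it, 67 moved and 8 moved with the other sign. Of the levels of the members per class, 231 of 616 moved out of their counting interval under the stricter gate. Of the levels per library, 44 of 144 moved out of theirs under other cell filters. Of the class contrasts of the members, 416 of 478 kept direction and call, 29 lost the call, 4 gained it and 29 changed sign; none of those 29 was called. The cause was not tested for any change below. Between libraries, Slc11a1 in the Arac+Dox pair of MA9 was −0.09 with stricter cell limits and −0.18 without macrophages; with every deposited barcode Slc11a1 in HM Arac+Dox against PBS was 0.06 and Slc40a1 in HM PBS against MA9 f/f PBS −0.14; with median-of-ratios scaling Ftl1 in the latter pair was 0.46. With a stricter gate, Fth1 in monocytes was 0.01 (Δ/Δ against f/f, PBS) and 0.03 (Arac+Dox), Fth1 in ungated cells 0.15 (Arac+Dox pair), Ftl1 in macrophages −0.02 (Δ/Δ, Arac+Dox against PBS), in mature neutrophils 0.07 (PBS pair) and −0.17 (f/f, Arac+Dox against PBS), in monocytes 0.11 (HM PBS against MA9 f/f PBS) and in ungated cells 0.04 (f/f, Arac+Dox against PBS). The stricter gate also gave −0.02 for Ftl1 in stem and progenitor cells, −0.04 for Mt1 in erythroid cells, 0.09 for Mt1 and 0.08 for Tfrc in macrophages, and −0.08 for Mt1 and −0.15 for Mt2 in monocytes. DESeq2 gave 0.14 for Tfrc in macrophages, and thinning −0.25 for Mt1 in erythroid cells and 0.06 for Slc40a1 in cycling cells. Without TMM factors Slc40a1 in cycling cells was 0.12 and Tfrc in stem and progenitor cells 0.34, and without a filter on low counts Mt1 in stem and progenitor cells was −0.02. With no replicate block Mt1 and Mt2 in stem and progenitor cells were −0.22 and −0.48 and Tfrc in macrophages 0.20.

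A floor of 5 CPM gave 867, 1053, 195, 328, 2000 and 3990 genes past 2-fold in the library pairs (Δ/Δ against f/f with PBS and Arac+Dox, Arac+Dox against PBS under f/f, Δ/Δ and HM, and HM against MA9), and median-of-ratios scaling 1565 in the last. Thinning, which leaves fewer UMIs, gave 3142 calls in mature neutrophils, 3038 in monocytes, 1848 in stem and progenitor cells, 1397 in cycling cells, 876 in macrophages and 205 in erythroid cells. With no replicate block the calls were 3761 in monocytes and 811 in cycling cells. Leaving out each library in turn gave 2501 to 4178 calls in cycling cells, 1403 to 2516 in erythroid cells, 1365 to 2343 in macrophages, 5639 to 6073 in mature neutrophils, 5007 to 5698 in monocytes and 3210 to 5209 in stem and progenitor cells. The counts moved by over 1.5 times without the library labelled MA9 f/f PBS in cycling (2501) and erythroid cells (1403), and without that labelled Δ/Δ PBS (1499) or Δ/Δ Arac+Dox (1365) in macrophages.

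The sign also changed in these leave-one-out ranges of values that passed no test: in stem and progenitor cells Ftl1 −0.11 to 0.41, Mt1 −0.16 to 0.37, Mt2 −0.07 to 0.81 and Tfrc −0.56 to 0.17; in erythroid cells Mt1 −0.08 to 0.27; in mature neutrophils Mt2 −0.70 to 0.01; in cycling cells Slc40a1 −0.11 to 0.08; and in macrophages Tfrc −0.51 to 0.76. Labels share no replicate number across groups, and the block is the library. Levels of classes with few UMIs, such as Slc11a1 in cycling cells and Mt2 in HM PBS, are limited by depth.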
